A study of Homo sapiens with 20 samples.

Results

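Chromatin loops on human chromosomes 16, 19 and 22 were examined in the Hi-C data of 4 glioblastoma cell lines. Every anchor pair that any of the 4 lists of strongest loops placed on these chromosomes was a member, whatever its strength or change. There were 27730 such anchor pairs among 572000 distinct pairs in the 4 lists together (4.85%), of which 11535 lay on chromosome 16, 8497 on chromosome 19 and 7698 on chromosome 22. An anchor is a stretch of about 5 kb, an anchor pair (here also a loop) is a pair of such stretches on 1 chromosome, and loop strength is the contact signal of the pair after the authors' bias correction and enhancement.

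H4 and 42MGBA are established human glioblastoma lines that each carry a naturally occurring truncating mutation of STAG2, labelled STAG2-mutant. From each, a derivative was made by gene editing that restored STAG2: H4 88-1 from H4, and 53-1 from 42MGBA, both labelled STAG2-WT. A mutant line and its corrected derivative are called a system below. All 4 lines were grown in DMEM with FBS and Pen/Strep. Each corrected line is a single derivative of its parent, so that an effect of the correction and a property of that derivative cannot be told apart. Hi-C, which ligates and sequences DNA ends that lie close together in the nucleus, was made with the Arima kit on 2 replicates per line, and the authors pooled both replicates into 1 list of the 300000 strongest anchor pairs per line. With 1 list per line there is no replicate spread and no test, and the reads behind a loop are unknown, so that no interval is given. All comparisons below are descriptions of these lists, set beside the other 20 chromosomes.

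Loops of this kind form when cohesin, a ring-shaped complex, extrudes DNA until it meets CTCF bound to its motif, most often at a pair of motifs that point toward each other. STAG2 and STAG1 are alternative subunits of the ring, and the form with STAG2 is known for shorter contacts between enhancers and promoters while the form with STAG1 is more stably held at CTCF sites. Gene-dense chromosomes are rich in CpG islands and early-replicating DNA and tend to lie toward the centre of the nucleus. Against the annotation, chromosome 19 held 25.03 protein-coding genes per Mb, the highest of 23 chromosomes, chromosome 16 held 9.54 (place 4) and chromosome 22 held 8.77 (place 5). The label "gene-rich" therefore held for these chromosomes, though chromosome 17, at 14.6 genes per Mb (place 2), is denser than chromosomes 16 and 22 and is not among them.

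The letters that carry the comparison are shown first, because orientation of CTCF-like letters and the promoters at the anchors are what the named loops are described by. Coordinates are of GRCh37, the sequence of hg19, and each line reads 5′ to 3′ on the strand given. Capitals mark CTCF-like letters, either AGGGGGCGC, AGGTGGCAG or a longer form of the CTCF core of 12 bases, 8 of them fixed. A match is a description of the sequence and does not show that CTCF is bound there. The first pair of lines comes from both anchors of the strongest loop of chromosome 16, the next from the VPS35L and GPRC5B loop, the next from the left anchor of the SLC6A2 loop, and the last 3 from the CALM3 and DACT3 loop.
Chromosome 16 strongest loop, left anchor, chr16:86106586-86106647, + strand: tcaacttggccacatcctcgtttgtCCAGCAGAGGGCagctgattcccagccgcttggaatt
Chromosome 16 strongest loop, right anchor, chr16:86550615-86550676, + strand: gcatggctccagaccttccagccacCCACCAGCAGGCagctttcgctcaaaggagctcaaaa
VPS35L anchor, chr16:19567629-19567690, + strand: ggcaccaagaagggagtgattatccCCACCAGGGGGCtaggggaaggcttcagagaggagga
GPRC5B anchor, chr16:19896172-19896230, - strand: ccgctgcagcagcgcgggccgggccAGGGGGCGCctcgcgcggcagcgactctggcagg
SLC6A2 anchor, chr16:55737902-55737960, + strand: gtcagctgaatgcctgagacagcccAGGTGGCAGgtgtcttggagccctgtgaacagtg
CALM3 anchor, forward letters, chr19:47114336-47114394, + strand: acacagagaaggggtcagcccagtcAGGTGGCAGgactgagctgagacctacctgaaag
CALM3 anchor, reverse letters, chr19:47115342-47115400, - strand: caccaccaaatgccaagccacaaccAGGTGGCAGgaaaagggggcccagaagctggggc
DACT3 anchor, chr19:47162943-47163001, - strand: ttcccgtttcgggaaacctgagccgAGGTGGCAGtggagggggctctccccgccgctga

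By the short forms alone, the VPS35L and GPRC5B loop had forward letters in the left and reverse letters in the right anchor, the arrangement called convergent. The longer form was found on both strands of the VPS35L anchor, and the line shown is a forward match. The SLC6A2 anchor, the left of its loop, held the longer form on the reverse strand, beside the forward short form shown. The right anchor of that loop held the longer form on the forward strand. The strongest loop of chromosome 16 had forward letters in both anchors. The CALM3 anchor had letters on both strands, and the DACT3 anchor only on the reverse strand.

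Promoters of genes whose starts lay at anchors of named loops are shown next, since a gene start at an anchor is how a loop is tied to a gene here. The sequences are those of RefSeq, 300 bases around the start, in the table for GRCh38.p14. Each was found letter for letter in GRCh37, and the position given is the one in GRCh37. Capitals mark GGGCGG or its reverse complement, the GC box bound by factors of the SP family. Of the 15 genes with a start at a named loop, 13 had a promoter in the table.
FOSB promoter, chr19:45971004-45971303, + strand: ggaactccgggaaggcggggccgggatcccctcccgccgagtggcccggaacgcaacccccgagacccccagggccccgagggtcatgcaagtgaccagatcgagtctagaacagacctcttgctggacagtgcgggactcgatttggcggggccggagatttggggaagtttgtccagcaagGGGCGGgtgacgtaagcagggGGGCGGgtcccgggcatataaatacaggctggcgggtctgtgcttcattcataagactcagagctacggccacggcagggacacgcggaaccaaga
CIRBP promoter, chr19:1269081-1269380, + strand: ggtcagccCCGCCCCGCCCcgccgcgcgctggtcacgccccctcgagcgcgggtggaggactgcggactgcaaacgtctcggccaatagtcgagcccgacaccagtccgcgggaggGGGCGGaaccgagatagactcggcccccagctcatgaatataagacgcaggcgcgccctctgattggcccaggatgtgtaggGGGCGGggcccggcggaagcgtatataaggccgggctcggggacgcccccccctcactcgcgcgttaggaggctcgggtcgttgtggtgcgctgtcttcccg
MYH9 promoter, chr22:36783963-36784262, - strand: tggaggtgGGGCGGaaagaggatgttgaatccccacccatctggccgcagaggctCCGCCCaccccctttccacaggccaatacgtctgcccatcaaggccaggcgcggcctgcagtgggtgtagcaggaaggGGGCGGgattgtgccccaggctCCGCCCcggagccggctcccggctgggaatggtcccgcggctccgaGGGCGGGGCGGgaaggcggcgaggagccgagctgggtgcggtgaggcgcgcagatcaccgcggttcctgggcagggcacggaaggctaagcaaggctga

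GC boxes were found at 2 places in the FOSB promoter, 4 in that of CIRBP and 6 in that of MYH9, some of them overlapping. They are common letters: 57.8% of 3878 promoters on chromosomes 16, 19 and 22 held at least 1, as did 45.0% of all 35116 promoters in the table. None of the 3 promoters held either short CTCF-like form, which 2.66% (AGGGGGCGC) and 0.748% (AGGTGGCAG) of the promoters on these chromosomes held.

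The chromosomes contributed few loops for their size. Of 300000 loops per line they held 12650 (4.22%) in H4 and 15219 (5.07%) in its corrected line, and 13085 (4.36%) in 42MGBA and 13838 (4.61%) in its corrected line. Per Mb of chromosome they stood between place 13 and place 21 of 23 in the 4 lists, from 52.2 loops per Mb (chromosome 16 in 42MGBA) to 93.8 (chromosome 22 in 42MGBA). Each list has a fixed total, so that these numbers are shares and not absolute amounts. The loops came in patches, since neighbouring anchors around 1 contact are listed separately. Once pairs with both anchors within 10 kb were joined, chromosome 16 held 205 to 249 groups per list, chromosome 19 held 216 to 256 and chromosome 22 held 141 to 217.

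The 2 isogenic systems moved in opposite directions on chromosome 22 in number. Chromosome 22 held 2770 loops in H4 and 3614 in H4 88-1, 1.30 times as many and the highest such ratio of 23 chromosomes. It held 4814 in 42MGBA and 3661 in 42MGBA 53-1, 0.760 times as many and place 21. Opposite directions were not particular to it: chromosomes 3, 8, 11, 12, 20 and X also held more in H4 88-1 and fewer in 42MGBA 53-1. Chromosome 16 held more loops in both corrected lines (5955 and 7185 in the H4 system, 4721 and 5996 in the 42MGBA system, 1.21 and 1.27 times, place 2 in both). Chromosome 19 did likewise, with 3925 and 4420 in the H4 system and 3550 and 4181 in the 42MGBA system.

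Loops on the 3 chromosomes were short. The distance between the anchors had a median of 137 kb (H4), 137 kb (H4 88-1), 117 kb (42MGBA) and 91.7 kb (42MGBA 53-1) on chromosome 19, the shortest of 23 chromosomes in each of the 4 lists. On chromosome 22 the medians were 168, 177, 174 and 112 kb, and on chromosome 16 they were 258, 244, 219 and 199 kb, in the same order of lines. Over the whole lists they were 343, 307, 302 and 252 kb. Short loops were not particular to these chromosomes. Chromosome 17 had medians of 237, 229, 154 and 116 kb, below chromosome 16 in each list and below chromosome 22 in 42MGBA. In 42MGBA 53-1, 54.3% of the chromosome 19 loops and 44.8% of those on chromosome 22 spanned less than 100 kb, against 41.9% and 21.96% in 42MGBA.

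Over the whole lists the median distance was shorter in both corrected lines, by 36.2 kb in H4 88-1 and by 49.4 kb in 42MGBA 53-1. In the H4 system the shift on these chromosomes was small: the corrected minus mutant difference was -13.7 kb on chromosome 16, 0.46 kb on chromosome 19 and 9.01 kb on chromosome 22, while the other 20 chromosomes ran from -111 to -7.50 kb. When only loops of 50 kb or more were kept, the difference was -22.6 kb on chromosome 19 and -22.02 kb on chromosome 22, so that the positive signs turned. In the 42MGBA system the differences were -20.2, -25.1 and -62.4 kb on chromosomes 16, 19 and 22, within the range of the other chromosomes (-97.3 to -14.5 kb).

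**Figure D1:**
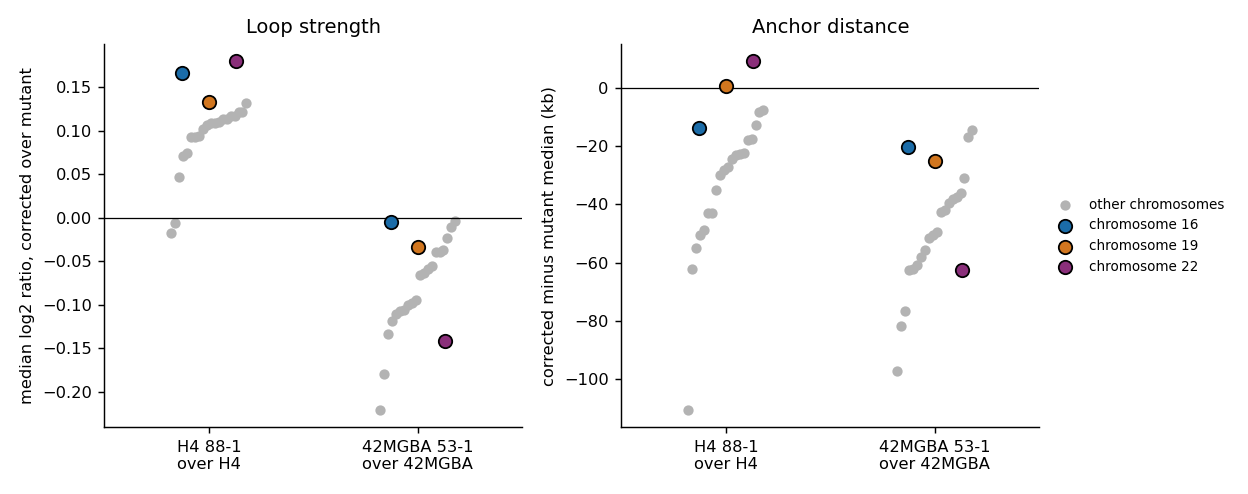
Median log2 ratio of loop strength (left) and difference in median anchor distance in kb (right), STAG2-corrected against STAG2-mutant line, for each isogenic pair; each point is 1 of 23 chromosomes, with no error bars because each line has 1 list. Chromosome 22 sits highest of all in the H4 system (0.18) and near the bottom in the 42MGBA system (-0.14).

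Strength was compared as the log2 ratio of the corrected over the mutant line, with the lowest value of a list standing in for a loop absent from it. The scale of the lists differed: the lowest listed value was 4.14 in H4 and 4.44 in H4 88-1 (log2 ratio 0.10), and 4.49 in 42MGBA and 4.28 in 42MGBA 53-1 (log2 ratio -0.07). The median log2 ratio over all loops lay close to these, at 0.09 in the H4 system and -0.08 in the 42MGBA system. Chromosome medians are therefore given both as they stand and relative to that median. Those of distance classes, windows, genes and gene lists are given on the deposited scale only.

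In the H4 system these chromosomes took the first 3 places of 23, at 0.18 on chromosome 22, 0.17 on chromosome 16 and 0.13 on chromosome 19, above the other chromosomes (-0.02 to 0.13). Relative to the median over all loops they stood at 0.08, 0.07 and 0.04. In the 42MGBA system chromosome 22 was at -0.14 (place 21), chromosome 19 at -0.03 (place 5) and chromosome 16 at -0.005 (place 2), while the other chromosomes ran from -0.22 to -0.004. Relative to the median over all loops, chromosome 16 stood at 0.07 and chromosome 19 at 0.04, so that their sign in this system depends on the scaling, and chromosome 22 stood at -0.06. Chromosome 22 thus lay above every other chromosome in the H4 system and near the bottom in the 42MGBA system (place 21 of 23), on either scale.

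In the H4 system, 4.89% of the loops on chromosome 16 (429), 3.42% of those on chromosome 19 (198) and 6.34% of those on chromosome 22 (281) were 1.5-fold or more stronger in H4 88-1, where 2.92% of all loops passed that fold. The share that was 1.5-fold or more weaker was 0.684%, 0.414% and 0.135% (60, 24 and 6 loops), beside 0.722% of all loops. In the 42MGBA system 18, 9 and 11 loops were 1.5-fold or more stronger in 42MGBA 53-1 (0.253%, 0.170% and 0.184%), beside 0.485% of all loops. Those 1.5-fold or more weaker numbered 48 on chromosome 16 (0.676%), 64 on chromosome 19 (1.21%) and 304 on chromosome 22 (5.08%), beside 3.4% of all loops. The stronger share of chromosome 22 in H4 88-1 was the highest of 23 chromosomes and its weaker share there the lowest, while in 42MGBA 53-1 the lowest weaker share was that of chromosome 16. Where a loop is absent from 1 line its fold is a bound set by the lowest listed value, as for 104 of the 281 stronger loops and 120 of the 304 weaker ones on chromosome 22. With the log2 ratios centred, the 908 stronger and 90 weaker loops of the 3 chromosomes in H4 88-1 became 437 and 172, and the 38 stronger and 416 weaker ones in 42MGBA 53-1 became 122 and 238.

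The gap between the systems on chromosome 22 was also seen among loops of like length between 100 and 800 kb. Between 100 and 200 kb, the median log2 ratio on chromosome 22 was 0.22 in the H4 system and -0.18 in the 42MGBA system, where the other chromosomes had 0.16 and -0.03. Between 400 and 800 kb it was 0.23 and -0.27, against 0.06 and -0.15 elsewhere. In that class 93 of 778 loops (12.0%) were 1.5-fold or more stronger in H4 88-1, where 2.03% of those on the other chromosomes were. In 42MGBA 53-1, 93 of 774 (12.0%) were 1.5-fold or more weaker, where 5.58% of those on the other chromosomes were. These counts include patches of neighbouring loops, with groups of 31, 30 and 18 among the stronger and 14 among the weaker. The shares thus rest on fewer separate contacts than loops. Below 100 kb the 42MGBA system was near 0 on all 3 chromosomes (0.003, 0.004 and -0.01), as it was on the other chromosomes (-0.002). Chromosome 19 followed the other chromosomes closely up to 400 kb in the H4 system (0.12, 0.16 and 0.11 against 0.12, 0.16 and 0.11), and lay below them between 200 and 800 kb in the 42MGBA system (-0.14 and -0.25 against -0.08 and -0.15). The 413 loops of 800 kb or more on chromosome 16 had a median of -0.07 in the H4 system, and 25 of them (6.05%) were 1.5-fold or more weaker in H4 88-1, while the other chromosomes had a median of -0.04 in that class and 2.93% weaker.

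**Figure D2:**
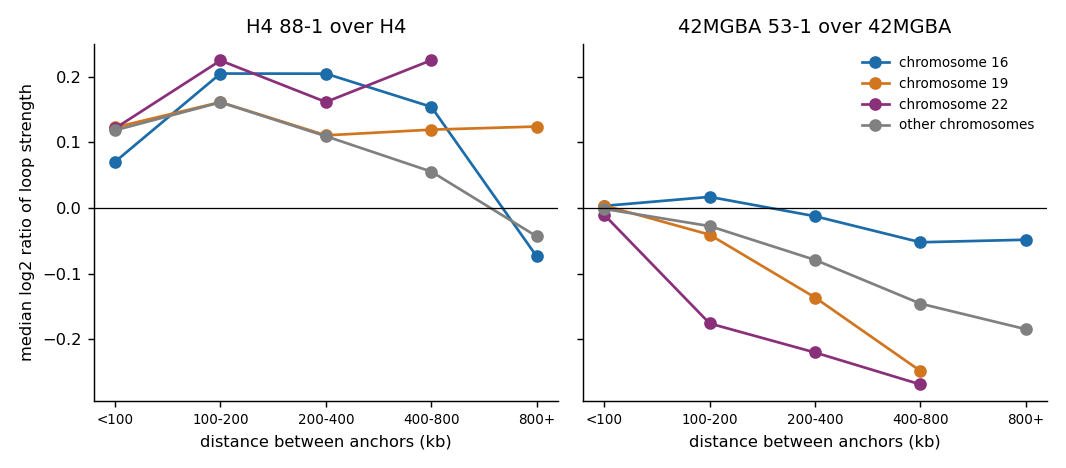
Median log2 ratio of loop strength, corrected over mutant, by distance between the anchors in kb, for chromosomes 16, 19 and 22 and all other chromosomes; classes with under 20 loops are not drawn and there are no replicates. Chromosome 22 reaches 0.23 at 400 to 800 kb in the H4 system and -0.27 in the 42MGBA system.

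The direction on chromosome 22 held along its length. In windows of 5 Mb with at least 20 loops, the median was positive in 8 of 8 windows in the H4 system (0.10 to 0.27) and negative in 7 of 8 in the 42MGBA system (-0.22 to 0.08). Leaving out each window in turn kept the chromosome median between 0.17 and 0.19 in the first and between -0.15 and -0.13 in the second. On chromosome 16, 12 of 15 windows were positive in the H4 system and 6 of 14 in the 42MGBA system, and on chromosome 19 the counts were 8 of 10 and 2 of 12. The window that ends chromosome 16, from 85 to 90 Mb, held 28.9% of its loops in the H4 system and 163 of its 429 stronger loops; it includes the FOXF1, FOXC2 and FOXL1 genes described below.

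Of the 1153 chromosome 22 loops listed in all 4 lines, 712 (61.8%) were stronger in H4 88-1 and weaker in 42MGBA 53-1 than in the respective parent on the deposited scale, against 42.3% of such loops on the other chromosomes. The share was 34.4% of 2208 on chromosome 16 and 40.4% of 1252 on chromosome 19. Chromosome 16 had the larger share that was stronger in both corrected lines, 946 loops or 42.8%, against 33.5% on chromosome 19, 17.3% on chromosome 22 and 21.9% elsewhere. Of the 4613 loops listed in all 4 lines on the 3 chromosomes, 0 passed 1.5-fold in the same direction in both systems, and such loops were rare on the other chromosomes too (24 stronger and 89 weaker of 105700). Of the 216 chromosome 22 loops that were 1.5-fold or more stronger in H4 88-1 and were also listed in the 42MGBA system, 185 (85.6%) were weaker in 42MGBA 53-1, with a median of -0.20, and 18 were weaker by 1.5-fold or more. On the other chromosomes 61.3% of such loops were weaker. Most loops of chromosome 22 went these ways whether or not they were picked. The log2 ratio was above 0 for 79.9% of all its loops in the H4 system and for 22.8% in the 42MGBA system. Whether the 61.8% and 85.6% exceed what these chromosome-wide shifts give was not tested.

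**Figure D3:**
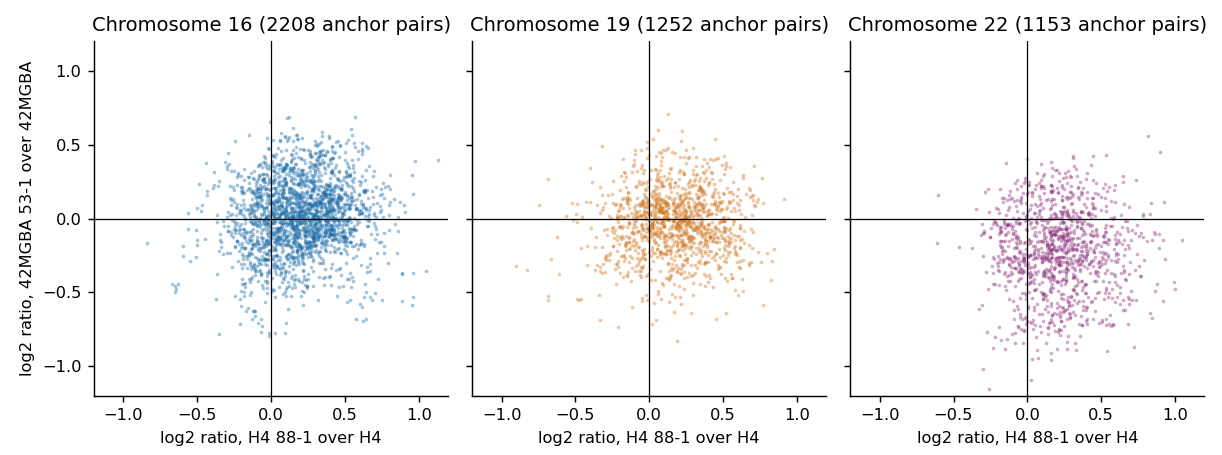
Log2 ratio of loop strength in the H4 system (x axis) against the 42MGBA system (y axis) for the anchor pairs listed in all 4 lines on chromosomes 16, 19 and 22; each point is 1 anchor pair, and neighbouring pairs share anchors. On chromosome 22, 61.8% of points lie to the lower right of the origin, stronger in H4 88-1 and weaker in 42MGBA 53-1. Of all chromosome 22 loops, 79.9% had a log2 ratio above 0 in the H4 system and 22.8% in the 42MGBA system.

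In what follows the strongest loop is the one with the highest mean over the 4 lists, and the largest gain or loss in a system is taken among loops listed in both of its lines. The strongest loops were alike within a system, and on chromosomes 16 and 19 they differed between the systems. On chromosome 16 the strongest loop over the 4 lists joined chr16:86104473-86109235 with chr16:86550056-86554796, 441 kb apart, with strengths of 26.0 (H4), 25.8 (H4 88-1), 11.7 (42MGBA) and 13.9 (42MGBA 53-1). The right anchor begins just past the end of FOXF1, and no protein-coding start lay within 3 kb of either anchor. The H4 lines were both above the 42MGBA lines.

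On chromosome 19 the strongest loop joined chr19:46583726-46588667 with chr19:46764408-46769390, 176 kb apart, with 10.0 (H4), 8.88 (H4 88-1), 17.4 (42MGBA) and 18.3 (42MGBA 53-1), and no gene start was at either anchor. Here the 42MGBA lines were both above the H4 lines. The strongest loop of chromosome 22, chr22:40832311-40837150 with chr22:41036345-41041011, had 13.4, 14.5, 13.1 and 12.2 in the same order. Its left anchor lies in MRTFA, a coactivator of serum response factor that senses actin, near the start of one of its transcripts. In each of the 3 loops the lines of a system were within 1.19-fold of each other.

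The loop on chromosome 16 that gained most in the H4 system lay at MIR193BHG, the host gene of the microRNAs miR-193b and miR-365a, and reached into an intron of PARN, a poly(A)-shortening nuclease, 223 kb away. H4 had it at 4.24 and H4 88-1 at 9.29 (log2 ratio 1.13, 2.19-fold), and the 42MGBA lines had 9.09 and 11.97 (0.40). H4 stood apart with the weakest value of the 4. In all, MIR193BHG had 69 loops, of which 2 were listed in H4 and 31 in H4 88-1, whereas 58 and 60 were listed in 42MGBA and 42MGBA 53-1. The median log2 ratio of its loops was 0.52 in the H4 system and 0.01 in the 42MGBA system.

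The loop of chromosome 16 that weakened most in H4 88-1 joined the starts of VPS35L, a subunit of an endosomal recycling complex, and GPRC5B, an orphan G protein-coupled receptor. H4 had it at 9.06 and H4 88-1 at 5.05 (-0.84), and the 42MGBA lines had 7.01 and 6.25 (-0.17). Both corrected lines were below their parents, and this is the loop described above as convergent by the short forms alone.

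The largest increase of chromosome 16 in 42MGBA 53-1 was at an exon of SLC6A2, the noradrenaline transporter, joined to a stretch 129 kb away with no coding gene. It was also the loop stronger in both corrected lines whose smaller change was largest on that chromosome, from 5.04 to 7.49 in the H4 system (0.57) and from 4.93 to 7.95 in the 42MGBA system (0.69). The largest decrease joined introns of NPIPB2 and SNX29, a sorting nexin, with 8.50 in 42MGBA and 4.33 in 42MGBA 53-1 (-0.97), and was listed in neither H4 line. NPIPB2 belongs to a family of near-identical copies on this chromosome, so that its reads are uncertain. The loop weaker in both corrected lines, chr16:10610213-10615225 with chr16:10827370-10832342, had 8.57 and 5.47 in the H4 system and 6.65 and 4.70 in the 42MGBA system.

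On chromosome 19 the largest gain in H4 88-1 lay between CYP2S1, a cytochrome P450, and the start of HNRNPUL1, an RNA-binding protein, 53.5 kb apart. The left anchor, chr19:41709377-41714389, lies near the start of a CYP2S1 transcript. The RefSeq promoter of CYP2S1, chr19:41698874-41699173, lies outside that anchor. H4 had this loop at 4.34 and H4 88-1 at 8.91 (1.04), while 42MGBA did not list it and 42MGBA 53-1 had it at 5.18. The largest decrease lay at the start of MPV17L2, a mitochondrial protein, with 8.51 in H4 and 4.55 in H4 88-1 (-0.90), and 6.32 and 5.05 in the 42MGBA system (-0.32).

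In the 42MGBA system the loop that gained most joined an intron of ERCC1, a nucleotide excision repair protein, to the start of FOSB, an AP-1 subunit, only 19.7 kb apart. 42MGBA had it at 5.01 and 42MGBA 53-1 at 8.18 (0.71), against 5.27 and 5.76 in H4 and H4 88-1 (0.13). The 53-1 value was the highest of the 4. The loop that weakened most joined CALM3, which encodes calmodulin, and the start of DACT3, an antagonist of Wnt signalling, 44.3 kb apart, at 7.84 in 42MGBA and 4.404 in 42MGBA 53-1 (-0.83), with 5.47 and 6.23 in the H4 system (0.19). Here the corrected lines differed in direction.

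Stronger in both corrected lines was the loop between ATP5F1D, an ATP synthase subunit, and the start of CIRBP, a cold-inducible RNA-binding protein, 19.9 kb apart. It had 7.24 and 9.84 in H4 and H4 88-1 (0.44) and 4.68 and 6.80 in 42MGBA and 42MGBA 53-1 (0.54). Weaker in both was the loop of 304 kb from the start of ZNF114, a zinc finger gene, to an intron of SULT2B1, a sterol sulfotransferase, with 7.52 and 4.67 in the H4 system (-0.69) and 8.04 and 5.48 in the 42MGBA system (-0.55).

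On chromosome 22 the largest gain in H4 88-1, chr22:46388744-46393734 with chr22:46509008-46513963, went from 5.06 to 10.8 (1.10), at 4.62 in 42MGBA and absent from 42MGBA 53-1. No gene start was at its anchors, and the left one lies upstream of the start of WNT7B. The largest decrease in H4 88-1 was small beside those of the other chromosomes, from 7.10 to 4.64 at an intron of MB, the myoglobin gene (-0.61). The largest decrease in 42MGBA 53-1, chr22:26794436-26799449 with chr22:27039927-27044830, went from 10.4 to 4.69 (-1.16), with 6.31 and 5.27 in the H4 system (-0.26). The largest gain in 42MGBA 53-1 joined adjacent anchors inside RBFOX2, a splicing factor (5.15 and 8.73, 0.76), and was in neither H4 list.

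The loop from the start of MYH9, the heavy chain of nonmuscle myosin IIA, to an exon of TXN2, mitochondrial thioredoxin, 77.7 kb away, was the one stronger in both corrected lines by the largest smaller change. H4 had it at 4.91 and H4 88-1 at 8.66 (0.82), and the 42MGBA lines had 6.47 and 9.56 (0.56). Both corrected values were above both mutant values. The loop picked in the same way as weaker in both lay at a start of MICAL3, an actin-oxidising monooxygenase, with 6.59 and 5.26 in the H4 system (-0.33) and 9.45 and 6.17 in the 42MGBA system (-0.61).

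**Figure D4:**
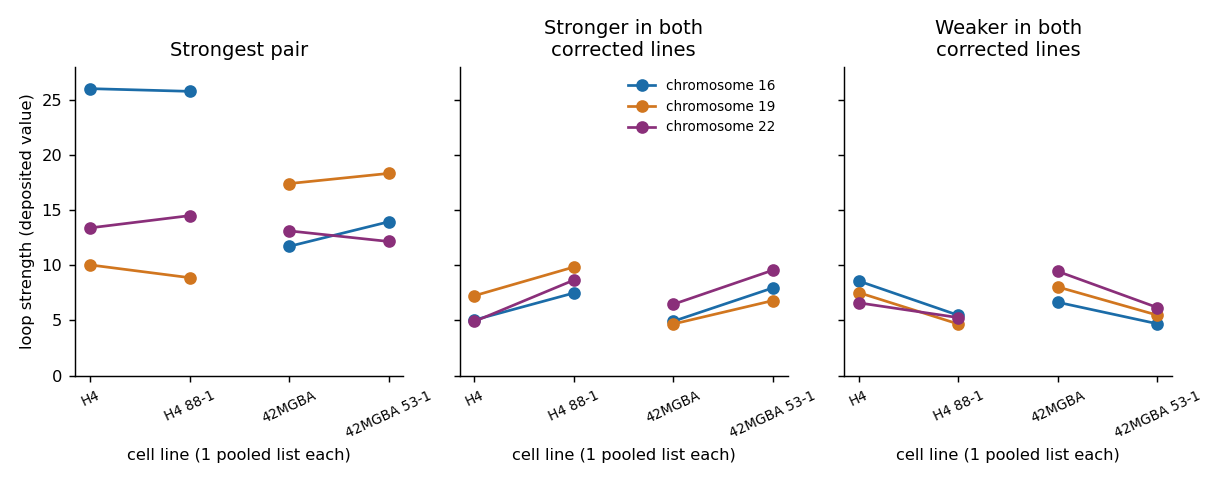
Deposited loop strength in each of the 4 lines for the strongest loop of chromosomes 16, 19 and 22 and for the loop of each chromosome that went the same way in both isogenic pairs by the largest margin; lines join a mutant line to its corrected derivative, with 1 pooled list per line. The strongest loops stayed within 1.19-fold of their isogenic partner while the others moved between 1.25-fold and 1.76-fold.

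Genes were tied to loops by a protein-coding transcript start within 3 kb of an anchor. A start lay at an anchor of 63.8% of the loops on chromosome 19, 47.6% on chromosome 16 and 42.5% on chromosome 22, against 30.3% on the other chromosomes, and at both anchors of 22.7%, 11.2% and 7.46%, against 3.76%. Chromosome 19 had the fewest or second fewest loops per gene in every list (2.40 to 2.99). In the H4 system the median distance of loops with starts at both anchors was 122 kb on chromosome 19 and 146 kb on chromosome 16, against 161 and 262 kb for those with none, whereas on chromosome 22 it was 165 against 160.4 kb. Their strength did not follow the starts in 1 direction: on chromosome 16 in the H4 system the median log2 ratio was 0.17 with no start, 0.18 with 1 and 0.10 with 2, and on chromosome 22 in the 42MGBA system it was -0.15, -0.14 and -0.12.

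The anchors also differed in sequence. Their median GC content was 50.9% on chromosome 19, 48.5% on chromosome 22 and 47.0% on chromosome 16, against 41.5% on the other chromosomes. The short CTCF-like forms were found in 17.97% of the 7965 anchors of the 3 chromosomes and in 11.5% of the other 120552. Where each anchor of a pair held them on 1 strand only, the arrangement was convergent in 28.3% of 915 loops, close to the 30.9% of the other chromosomes, and divergent in 18.1%. With the longer form the convergent share was 34.8% over all loops of the 3 chromosomes, beside 38.3% elsewhere. Over the 260 such loops listed in all 4 lines it was 46.2%, beside 45.3% elsewhere. In that set it was 54.4% on chromosome 19 (43 of 79), 48.9% on chromosome 16 (43 of 88) and 36.6% on chromosome 22 (34 of 93). Of the weaker loops of chromosome 22 in 42MGBA 53-1, 16 could be read with the short forms and 7 were convergent (43.8%), beside 44.9% of the weaker loops elsewhere. Of its stronger loops in H4 88-1, 9 could be read and 0 were convergent, beside 36.4% elsewhere. Neighbouring loops share anchors, so that these loops are not independent.

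Among the genes of chromosome 16, the neighbouring forkhead genes FOXC2 and FOXL1 had the most loops. FOXC2 had 234 and FOXL1 232, and FOXF1 beside them had 155. These transcription factors act in mesenchyme and vessels. FOXF1 had a strongest loop of 21.98 (H4), 20.8 (H4 88-1), 9.82 (42MGBA) and 12.0 (42MGBA 53-1), and FOXC2 one of 19.6, 23.8, 14.2 and 16.7. The H4 lines were above the 42MGBA lines at both genes.
The median log2 ratio was 0.25 at FOXF1, 0.27 at FOXC2 and 0.19 at FOXL1 in the H4 system, and 0.08, 0.004 and 0.004 in the 42MGBA system. Single loops at a gene spread widely: those of FOXC2 ran from -0.72 to 0.91 in the H4 system, with 12 past 1.5-fold stronger and 2 weaker. Over the chromosome's loops the shares were 4.89% and 0.684%.
Of the 862 genes of chromosome 16, 398 (46.2%) had a loop, and so did 11 of the 15 developmental transcription factors listed for it. Their 636 loops in the H4 system had a median of 0.22, with 44 past 1.5-fold stronger (6.92%) and 3 weaker (0.472%), beside 4.89% and 0.684% of the chromosome's loops and its median of 0.17. The 459 in the 42MGBA system had a median of 0.004 with none past either, beside 0.253% stronger and 0.676% weaker on the chromosome. SALL1, a zinc finger factor of kidney and limb development, had 34 loops (0.04 and -0.09), and CBFB, the partner of the RUNX factors, was lowest among those with at least 5 loops in both systems (0.13 and -0.21).

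The other lists of chromosome 16 held few loops. Of 8 cadherins, 3 had any, where 46.2% of the chromosome's genes did. CDH11 had 6, CDH13 had 6 and CDH5, the cadherin of endothelium, had 2. CDH11, a mesenchymal cadherin, had a median of 0.22 over 3 loops in the H4 system and -0.40 over 6 in the 42MGBA system. Of 11 metallothioneins, which bind zinc and copper, 3 had loops, all in the H4 system, beside the same 46.2% of genes. MT3, the brain form, had 9, with a median of 0.39 and 2 past 1.5-fold stronger, where 4.89% of the chromosome's loops were. Its loops were listed in H4 88-1 and not in H4.

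On chromosome 19 the zinc finger genes, many of them repressors in tandem clusters, had few loops for their number. Of 249, 55 had any, where 585 of the chromosome's 1480 genes (39.5%) did. The zinc finger genes had 120 loops in the H4 system and 397 in the 42MGBA system, with medians of 0.04 and -0.04. No loop was 1.5-fold or more stronger in either system, where 3.42% and 0.170% of the chromosome's loops were, and 2 (1.67%) and 7 (1.76%) were weaker, where 0.414% and 1.21% of the chromosome's loops were. ZNF846 had the most, 34, with medians of 0.002 and -0.25 and 4 loops 1.5-fold or more weaker in 42MGBA 53-1. ZNF580 had 32, all of them in the H4 system (median -0.07), ZNF575 had 26 (0.01 and 0.06) and ZNF841 had 25, all in the 42MGBA system. ZNF114 was weaker in both corrected lines over its loops (-0.36 and -0.50). Members of a cluster are similar in sequence, and uniquely mapped reads may be lost there.

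Of 65 genes in the tandem families of kallikreins, carcinoembryonic antigens, pregnancy-specific glycoproteins, SIGLECs, LILRs and KIRs, 14 had a loop, where 39.5% of the chromosome's genes did. The medians of this list were 0.20 in the H4 system and -0.03 in the 42MGBA system. CEACAM19 had 20 loops (0.24 and 0.004), CEACAM1 had 17 (0.29 over 2 loops and 0.008 over 17) and CEACAM18 had 12 (0.14 and -0.28). Over both systems CEACAM21 was highest (0.36 and 0.11) and CEACAM16 lowest (0.17 and -0.04) of the 3 members with at least 5 loops in both. No kallikrein or KIR gene had a loop.

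Of 27 growth and signalling regulators of chromosome 19, 18 had a loop, where 39.5% of the chromosome's genes did. The medians of this list were 0.13 and -0.01. TYK2, a Janus kinase, had 36, with 0.29 in the H4 system and -0.20 in the 42MGBA system. Of these, 3 were 1.5-fold or more stronger in H4 88-1 and 1 weaker in 42MGBA 53-1. Over the chromosome's loops the shares were 3.42% and 1.21%. FOSB had 26 loops, of which 42MGBA 53-1 listed 26 and each of the other lines 11, and its strongest was 6.31, 6.15, 7.35 and 9.34. Its median was 0.12 and 0.28, the highest of the list over both systems. CIC, a repressor of growth factor response genes, had 19, all in the 42MGBA system (-0.05), and JUND, an AP-1 subunit, was lowest (-0.06 and -0.07).

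On chromosome 22, where 208 of 450 genes (46.2%) had a loop, so did 20 of the 25 listed growth factor, matrix and glial genes. In the H4 system 54 of their 671 loops (8.05%, beside 6.34% of the chromosome's loops) were 1.5-fold or more stronger in H4 88-1 and none weaker, with a median of 0.19. In the 42MGBA system 48 of 787 (6.10%, beside 5.08%) were 1.5-fold or more weaker in 42MGBA 53-1 and none stronger, with a median of -0.08. The medians over all chromosome 22 loops were 0.18 and -0.14, so the list's median lay near that of its chromosome in the first and above it in the second, though its weaker share in the second was the higher one.

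MRTFA had the most loops of the chromosome, 299, with medians of 0.16 and 0.03. WNT7B, a Wnt ligand, had 131. Its strongest loop was 14.4 (H4), 16.3 (H4 88-1), 13.7 (42MGBA) and 8.78 (42MGBA 53-1), so that 53-1 stood below the other 3 lines. The strongest values at FBLN1 were the same. The median of WNT7B was 0.23 in the H4 system, with 14 loops 1.5-fold or more stronger, and -0.34 in the 42MGBA system, with 24 weaker. Over the chromosome's loops the shares were 6.34% stronger in H4 88-1 and 5.08% weaker in 42MGBA 53-1. TIMP3, an inhibitor of matrix metalloproteinases, had 88 loops, with a strongest loop of 10.6, 11.9, 18.2 and 10.8. It had medians of 0.17 and -0.31, with 15 loops 1.5-fold or more weaker in 42MGBA 53-1, and was the lowest of the list over both systems.

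MYH9 had 85 loops, of which H4 listed 20 and H4 88-1 50, while 42MGBA listed 43 and 42MGBA 53-1 listed 73, and was the highest of the list (0.37 and 0.10). Its strongest loop was 6.20, 11.5, 9.88 and 10.1, with H4 below the other 3 lines. CELSR1, a cadherin of planar cell polarity, had medians of 0.36 and -0.26, OSM, a cytokine, had 0.24 and -0.19, and FBLN1, a matrix protein, had 0.21 and -0.23. EP300, a histone acetyltransferase, was below 0 in both on the deposited scale (-0.03 and -0.06).

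**Figure D5:**
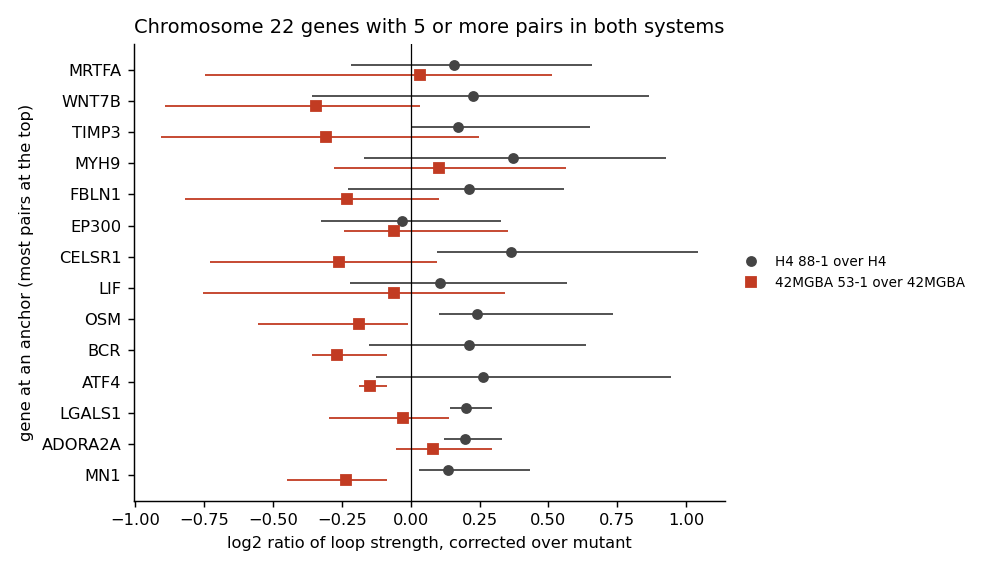
Log2 ratio of loop strength, corrected over mutant, for the 14 listed chromosome 22 genes with at least 5 loops in both isogenic pairs; symbols are medians over the loops of a gene and lines run from its lowest to its highest loop, not an error. On the deposited scale the H4 medians lie above the 42MGBA medians at each of the 14 genes, most widely at CELSR1 and WNT7B. The medians over all loops, 0.09 in the H4 system and -0.08 in the 42MGBA system, already differ in that direction.

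The 9 genes of these chromosomes in the study's tables of loop and expression changes (MIR193BHG, FOXC2, FOXF1, SALL1, NTN3, FOSB, MB, MYH9 and WNT7B) were chosen by the study on these cells, so that their direction is not independent evidence. All 9 had loops. Of 692 loops in the H4 system 78 (11.3%) were 1.5-fold or more stronger in H4 88-1 and 6 (0.867%) weaker, with a median of 0.25. The shares were 4.78% and 0.474% on the 3 chromosomes and 2.92% and 0.722% of all loops. Of 571 in the 42MGBA system 2 (0.350%) were stronger and 25 (4.38%) weaker in 42MGBA 53-1, with a median of -0.02. Here the shares were 0.206% and 2.26% on the 3 chromosomes and 0.485% and 3.4% of all loops. NTN3, a netrin, was lowest, with 12 loops in H4, none in H4 88-1 and a median of -0.29.

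The groups of neighbouring loops described next were chosen for their size or overlap after their values were seen. On chromosome 22 the largest group past 1.5-fold in 42MGBA 53-1 joined chr22:36681933-36734284, within MYH9, with chr22:36851558-36879918 at TXN2, and held 32 weaker loops (median -0.67). In H4 88-1, 22 loops from the neighbouring stretch chr22:36748977-36797738, which holds the MYH9 start, to the same place were 1.5-fold or more stronger (median 0.80). Next to these, 3 loops from chr22:36807518-36822068 were 1.5-fold or more stronger in 42MGBA 53-1 (median 0.85). In the 42MGBA system the stretch at TXN2 thus had weaker loops to the body of MYH9 and stronger ones to a stretch upstream of its start.

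Elsewhere on chromosome 22 the same stretches changed in opposite directions. Between chr22:45658857-45673243 and chr22:45824788-45838940, 6 loops were 1.5-fold or more stronger in H4 88-1 (median 0.64) and 5 were weaker in 42MGBA 53-1 (median -0.79). At PARVB, an adaptor of focal adhesions, 18 loops were stronger in H4 88-1 (median 0.72) and 14 weaker in 42MGBA 53-1 (median -0.70), where groups may be displaced by up to 10 kb. In all, 15 meetings of a stronger group in H4 88-1 and a weaker group in 42MGBA 53-1 were found on chromosome 22, 5 on chromosome 16 and 2 on chromosome 19, where a group may take part in more than 1. On chromosome 22 there were 50 stronger groups in H4 88-1 and, in 42MGBA 53-1, 46 weaker but only 5 stronger ones that could meet them. On chromosome 22, 1 meeting was of groups weaker in both. Meetings of groups stronger in both numbered 2 on chromosome 22 and 3 on chromosome 16, 2 of these with 1 group of H4 88-1 at RBBP6, a ubiquitin ligase that binds p53 and Rb.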

How the data were processed

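Hi-C was performed by the authors on 2 replicates of each of the 4 lines. Reads were trimmed to 36 bp and aligned to hg19 with bowtie, unique pairs were kept, duplicates were removed and pairs were assigned to anchors of about 5 kb. Biases were corrected with HiCorr and loops enhanced with DeepLoop. The deposited lists hold a signal called loop strength, and each line has the 300000 pairs where it was highest, with replicates pooled by the authors. Enhancement and the fixed list length make strengths and shares relative, and the depth per loop is unknown. The deposited distance is the number of bases between the anchors, not a midpoint distance.

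For each isogenic pair the union of the complete lists was taken, and an absent loop was given the lowest value of that list. Such a log2 ratio is a bound set by that value. Loops past 1.5-fold were counted. Genes were taken from GENCODE 44 on GRCh37, whose chromosome 1 has the length of that in hg19. Named loops are the strongest in all 4 lists, the largest change in each direction and pair among loops listed in both lines, and the loop of each direction whose smaller change over both systems was largest; named genes lie at their anchors, or have the most loops, or the highest or lowest median, in a list. The members and gene lists were chosen with earlier results of these data known. The calculation was tested on simulated data. RNA-seq of 12 samples was not used here. Python 3.11.15, pandas 2.3.3 and numpy 2.4.6 were used. One listed gene and the sequence of 1 loop are not reported here.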

Additional observations from a re-analysis of the deposited data

Results flagged for a closer look

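The results listed here were picked out because the H4 and 42MGBA systems had opposite signs. The difference between the systems was not tested, since each line has 1 list. The median log2 ratio of chromosome 16 was 0.17 in the H4 system and -0.0050 in the 42MGBA system, and that of chromosome 19 was 0.13 and -0.034; both 42MGBA values turned positive when centred on the median over all loops. The median log2 ratio of chromosome 22 was 0.18 and -0.14. The difference in median distance was 0.46 and -25.1 kb on chromosome 19 and 9.01 and -62.4 kb on chromosome 22, and both H4 values turned negative among loops of 50 kb or more and among the 100000 strongest. The corrected line held 844 more loops than the mutant line on chromosome 22 in the H4 system, and the difference was -1153 in the 42MGBA system. Among the gene lists, the medians were 0.25 and -0.019 for the study's loop genes, 0.21 and -0.24 for the cadherins (5 and 12 loops), 0.041 and -0.044 for the zinc finger genes, 0.20 and -0.026 for the tandem families, 0.13 and -0.0084 for the growth and signalling regulators and 0.19 and -0.083 for the chromosome 22 genes. The cause was not tested in any of these.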

How the results depend on the processing

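No paired analysis was possible because the 2 replicates of each line were pooled into 1 list before deposition, and for the same reason no replicate could be left out. The sign of chromosome 22 was the same in both systems under the 5 alternatives planned and when windows were left out. With the 100000 strongest loops of each list, the median log2 ratios of chromosomes 16, 19 and 22 were 0.26, 0.21 and 0.34 in the H4 system, and chromosomes 16 and 22 were at 0.095 and -0.29 in the 42MGBA system. With absent loops at 0.5 of the lowest value they were 0.27, 0.20 and 0.36, and 0.10, 0.037 and -0.32. Centred on the median over all loops they were 0.072, 0.038 and 0.085, and 0.072, 0.043 and -0.065. Less the other chromosomes in the same distance class they were 0.057, 0.0082 and 0.064 in the H4 system. In the 42MGBA system they were 0.053, -0.011 and -0.089, so that chromosome 19 was not positive there. Chromosome 16 in the 42MGBA system was at 0.0041 among loops listed in both lines and reached 0.0030 when 5 Mb windows, an alternative added after seeing the data, were left out 1 at a time.

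The difference in median distance in the H4 system was -0.884 and -8.03 kb on chromosomes 19 and 22 among the 100000 strongest, and -22.6 and -22.0 kb among loops of 50 kb or more; that of chromosome 22 in the 42MGBA system was -41.0 and -41.8 kb. With neighbours joined, the 3 chromosomes held 6.65% of the groups in H4, 7.004% in 42MGBA and 7.06% in 42MGBA 53-1.

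Loops past the fold on the 3 chromosomes, stronger and weaker, numbered 13 and 1 in the H4 system and 0 and 7 in the 42MGBA system at 2-fold, 437 and 172 and then 122 and 238 when centred, and 534 and 46 and then 21 and 243 among loops listed in both lines. Centring moved the share of stronger among called loops. A gene start lay inside an anchor of 31.4% of loops and within 10 kb of one in 71.9%, and the longer CTCF-like form gave 34.8% convergent. The cause was not tested for any of these changes beyond what each alternative's construction shows.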
